A study of Mus musculus with 2 samples.

Results

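Serotonin acts on neurons through a family of receptors that are, apart from the Htr3 channels, coupled to G proteins. The 9 receptor genes described here are Htr1a, Htr1b, Htr1d and Htr1f, whose receptors lower cyclic AMP through Gi and Go proteins, Htr5a, whose receptor couples to Gi and Go proteins as well, Htr2a and Htr2c, which act through Gq and phospholipase C, and Htr4 and Htr7, which raise cyclic AMP through Gs. In the hypothalamus and the neighbouring forebrain, serotonin arrives in fibres from the raphe nuclei and takes part in the control of feeding, body temperature, daily rhythms and sleep. The members were taken by gene symbol, 9 of the 32289 features in the files, with their counts of unique molecular identifiers (UMIs, each standing for 1 captured RNA molecule) in barcodes with 500 or more genes and 5% or less mitochondrial UMIs.

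The nuclei came from the dissected anterior hypothalamus with the preoptic area of male mice of 2 ages, 22 months (aged) and 3 months (young, wild-type per the labels), with tissue of 5 mice pooled into 1 library per age. The genotype and strain of the aged mice are not stated in the labels. With 1 library per age there was no replicate, so the 2 libraries are described and not tested, and every interval is a 95% interval that covers counting error alone. Effects of age cannot be told apart from those of the pool or the library.

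The libraries held 79107368 (aged) and 87520038 (young) UMIs in all. The rule left 8597 aged and 10437 young barcodes. Of these, 7709 aged and 9838 young barcodes were kept as nuclei after comparison with near-empty barcodes and removal of doublets. Neurons numbered 4942 and 6366, with a median of 8323 and 7796.5 UMIs, and glia of 4 classes 2637 and 3223, with a median of 2146 and 2053. Only 21 barcode sequences occurred in both libraries. Neurons fell into 25 clusters, of which 24 held 20 or more nuclei in each library. Each is called here by its 2 leading genes, and a likeness is stated only where markers of that type were highest in it. The dissection reached beyond the hypothalamus by these markers, with striatal-like, thalamic-like and septal-like types beside preoptic-like and suprachiasmatic-like ones. Apart from Slc18a2, the markers of serotonin neurons themselves were at or near 0. Over all neurons Tph2 had 11 aged and 14 young UMIs, Slc6a4 had 12 and 6, and Fev had 1 and 3. Slc18a2, also on that marker list, had 522 aged and 743 young UMIs.

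Htr2c was the receptor gene with most UMIs in neurons, with 52.1% (aged) and 52.4% (young) of the UMIs of all 9 members. Htr1f held 19.9% and 19.3%, Htr4 held 16.3% and 15.8%, and Htr7 held 5.76% and 5.74%. Each of the other 5 members held at most 3.02% in either library. The 5 members with most UMIs (Htr2c, Htr1f, Htr4, Htr7 and Htr2a) were also the 5 longest genes, in the same order, from 234.8 kb for Htr2c to 68.7 kb for Htr2a (GENCODE M21, GRCm38). Htr1b, at 5.54 kb, broke this order, with more UMIs than the longer Htr1d and Htr5a. Nuclear RNA can hold introns, so levels are also given per length. Per kb of gene, Htr1b was highest, at 3.78 CPM (UMIs scaled to 1000000 UMIs of the class) in aged and 3.51 in young neurons, followed by Htr2c at 2.08 and 1.95, Htr1f at 1.03 and 0.93, and Htr4 at 0.887 and 0.803. Per kb of exon, Htr1f led with 72.1 and 65.3 CPM, ahead of Htr2c with 52.3 and 49.0. The order of members thus differed between the 2 length scales. The level of Htr1b may hold reads of an overlapping antisense gene, and did not exceed the upper bound in near-empty barcodes (both described below).

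Promoter sequence is shown for 3 members: Htr2c, seen in all neuron types, Htr1f, highest in Chst9-Tshz1 neurons, and Htr1b, with the highest level per kb of gene. Each stretch ends at the base before the RefSeq start (GRCm38.p6), except that of Htr1f, whose last base lies 71 bases before it because exon bases of the GENCODE annotation follow. CpG dinucleotides are in capitals, and the strand is that of the gene.
Htr2c, chrX:146962263-146962512, plus strand, 250 bases: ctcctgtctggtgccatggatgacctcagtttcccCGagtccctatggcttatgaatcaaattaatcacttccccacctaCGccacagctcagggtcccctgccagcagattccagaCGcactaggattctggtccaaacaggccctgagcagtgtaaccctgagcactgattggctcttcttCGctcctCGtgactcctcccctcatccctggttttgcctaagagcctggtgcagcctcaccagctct
Htr1b, chr9:81633833-81634082, minus strand, 250 bases: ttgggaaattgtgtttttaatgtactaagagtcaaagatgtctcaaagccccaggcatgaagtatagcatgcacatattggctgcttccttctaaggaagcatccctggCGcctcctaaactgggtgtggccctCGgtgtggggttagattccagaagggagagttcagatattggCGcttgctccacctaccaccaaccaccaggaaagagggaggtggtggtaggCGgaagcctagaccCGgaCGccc
Htr1f, chr16:65105855-65106034, minus strand, 180 bases: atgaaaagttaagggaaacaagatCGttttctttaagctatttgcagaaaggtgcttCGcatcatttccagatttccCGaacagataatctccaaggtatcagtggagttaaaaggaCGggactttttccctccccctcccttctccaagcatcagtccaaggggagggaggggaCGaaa
These stretches hold 5, 6 and 5 CpG dinucleotides. Over the 27025 windows of 250 bases in the same RefSeq table, the median was 6. The stretch of Htr1f is shorter than these windows, and its full window of 250 bases, exon bases included, holds 7. The window of Htr7 stood apart among the members, with 41 CpG dinucleotides, a number reached or exceeded by few windows (percentile 99.2). Of its 250 bases, however, 168 lie in exons of the GENCODE annotation. On either strand, GGGCGG was found in the windows of Htr1a, Htr2a and both Htr1d starts, and occurs in 32.9% of all windows. TATAAA (13% of all windows), CACGTG (6.05%) and TGACGTCA (1.62%) were found in none of the members' windows, which cover 8 of the 9 members, Htr4 being unmatched.

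**Figure D1:**
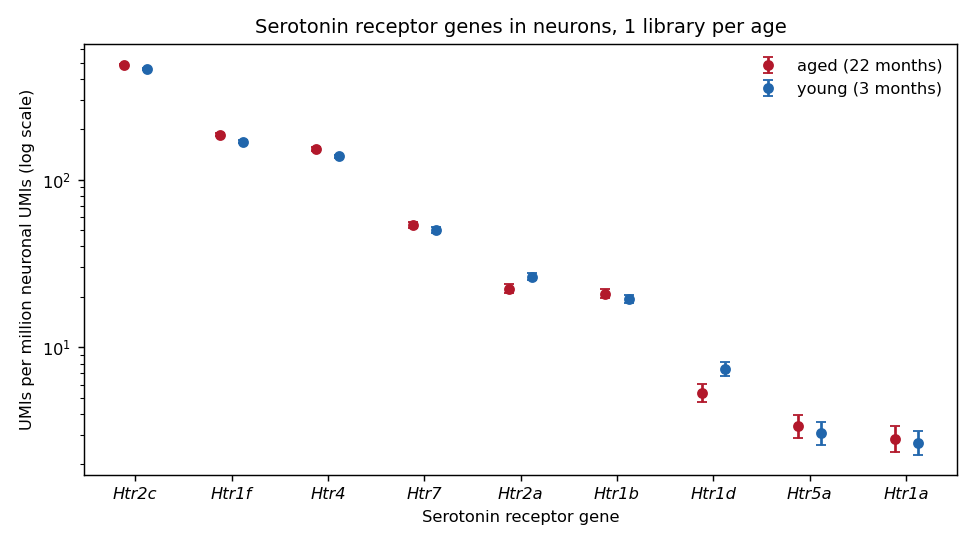
CPM of the 9 receptor genes in neurons (log axis) with exact Poisson 95% intervals, aged in red and young in blue. The points of the 2 libraries lie close together for all members, with Htr1d (5.35 and 7.40 CPM) and Htr2a (22.4 and 26.4 CPM) the 2 that were lower in the aged library.

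In the comparison of the ages over all neurons, 7 of the 9 members had a ratio above 1 and 2 had a ratio below 1. Htr1d, whose receptor sits largely on nerve endings and limits transmitter release, had 245 UMIs in aged neurons (5.35 CPM, 4.71 to 6.07) and 411 in young neurons (7.40 CPM, 6.71 to 8.16). Its aged-to-young ratio of 0.723 (0.615 to 0.849) was the only one among the 9 past the fold used here, a ratio of 0.8 or less or the same fold upward. Among all 17980 genes with 50 or more neuronal UMIs, 13.7% were lower and 10.9% were higher in the aged library by that fold, so 1 of 9 is near the background. The share past the fold depends on depth: among genes with 200 to 1000 UMIs, where Htr1d, Htr1a and Htr5a lie, 18.7% were lower and 15.6% higher.

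Htr2a, the target of classical psychedelics, had 1023 and 1466 UMIs, or 22.4 CPM (21 to 23.8) in aged and 26.4 CPM (25.1 to 27.8) in young neurons, a ratio of 0.847 (0.781 to 0.918). The members with most UMIs lay slightly on the other side. Htr2c, whose receptor in the hypothalamus acts on appetite, gave 487 CPM (481 to 494) in the aged and 457 CPM (452 to 463) in the young library, a ratio of 1.07 (1.05 to 1.09). For Htr1f the levels were 186 and 169 CPM (ratio 1.10, 1.07 to 1.14), and for Htr4 153 and 138 CPM (1.10, 1.07 to 1.14).

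Htr7, a receptor of the suprachiasmatic nucleus and thalamus linked to circadian phase, stood at 53.8 and 50.1 CPM, a ratio of 1.07 (1.02 to 1.13). The ratios of Htr1b (20.9 and 19.4 CPM), Htr5a (3.39 and 3.06 CPM) and Htr1a (2.84 and 2.68 CPM) had intervals that include 1. The members' median log2 ratio was 0.10, against 0.02 over all genes tested.

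Almost all of these UMIs were in neurons, with between 92.4% (Htr5a, young) and 99.6% (Htr4, aged) of a member's UMIs over all nuclei. In the 4 glial classes together, Htr2c stood at 20.3 CPM (16.9 to 24.1) in the aged and 15.1 CPM (12.5 to 18.2) in the young library, Htr1f at 5.81 and 5.97 CPM, and the other 7 members at 0.785 to 4.38 CPM. The highest single glial value was Htr2c in aged microglia, 31.6 CPM (21.2 to 45.4) from 29 UMIs, against 15.1 CPM (8.26 to 25.3) from 14 UMIs in young microglia.

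Free RNA sets a background for such levels. Barcodes with 100 or fewer UMIs held Htr2c at 162 CPM (146 to 179) in the aged and 215 CPM (193 to 238) in the young library, so the glial values lie below the level in free RNA. For 4 members in the aged library (Htr1a, Htr1b, Htr1d and Htr5a) and for 5 in the young library (these and Htr2a) the neurons did not exceed the upper bound of the near-empty level. From oligodendrocyte markers, free RNA was estimated at 8.16% of the UMIs of aged and 7.68% of those of young neurons. At that share it would supply 21.6% of the Htr1a level in young neurons and 10.0% in aged neurons, 10.3% and 7.31% for Htr1d, and at most 7.82% for any other member. Barcodes not called as nuclei, with more than 100 and under 500 UMIs, held Htr1b at 29.1 (aged) and 30.5 CPM (young). Htr1a stood there at 8.76 and 8.92 CPM, Htr1d at 5.96 and 8.61 and Htr5a at 4.59 and 5.25. All of these were above the neurons of the same library, and the remaining members were below them. In near-empty barcodes of the young library Htr1a stood at 7.57 CPM (4.03 to 12.9) against 2.68 in neurons, Htr1d at 9.89 (5.76 to 15.8) against 7.40, and Htr5a at 2.91 (0.945 to 6.79) against 3.06. Htr1b stood at 19.8 (13.7 to 27.6) against 19.4, and Htr2a at 19.8 (13.7 to 27.6) against 26.4. Levels in single neuron types went beyond it: the interval lay above that of the near-empty barcodes in 20 of 24 aged and 16 of 24 young types for Htr2c, in 13 and 7 for Htr1f, in 16 and 7 for Htr4 and in 12 and 12 for Htr7. For Htr2a this held in 6 and 5 types, for Htr1b in 3 and 3, for Htr1d in 2 and 1, for Htr1a in 1 and 0 and for Htr5a in none. Near-empty Htr1d was also lower in the aged library, 4.80 CPM (2.40 to 8.58), on 11 UMIs against 17, and its part in the difference between the neurons was not tested directly. With the near-empty profile subtracted, the log2 ratio of Htr1d was -0.41, against -0.47 without.

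**Figure D2:**
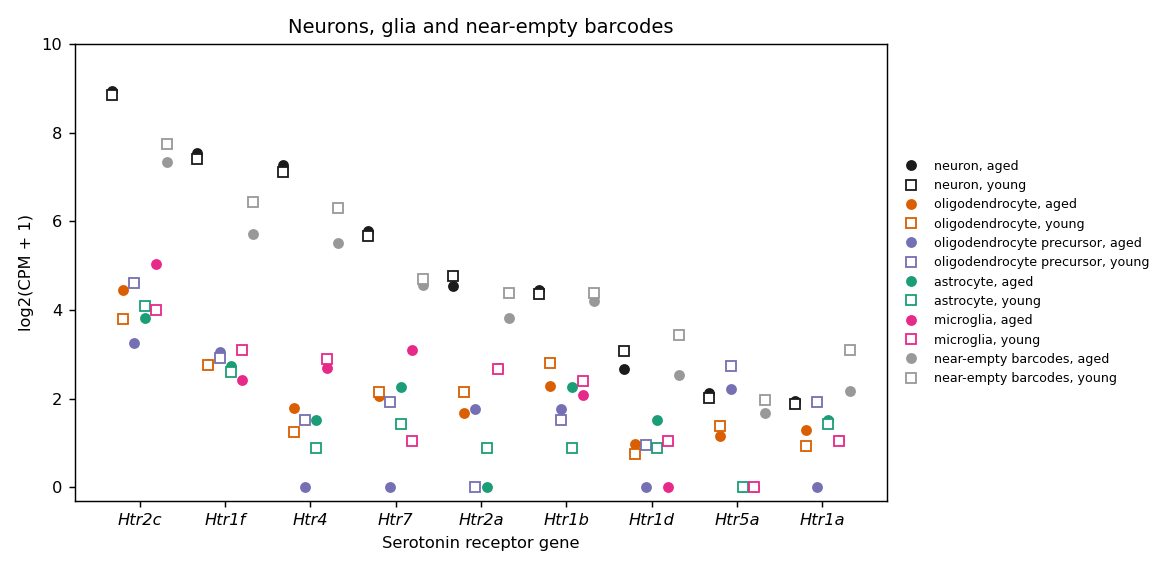
log2(CPM + 1) of each receptor gene in neurons, 4 glial classes and barcodes with 100 or fewer UMIs, with filled symbols for the aged and open symbols for the young library. Neurons lie above every glial class for Htr2c, Htr1f, Htr4, Htr7, Htr2a, Htr1b and Htr1d, and near-empty barcodes pass the neurons for Htr1a in both libraries and for Htr1b and Htr1d in the young library.

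By nucleus, Htr2c was seen in 61.7% of aged and 57.3% of young neurons, Htr4 in 46.5% and 44.2%, and Htr1f in 39.1% and 35.4%. Against this, 4.29% of aged and 2.54% of young glia had an Htr2c UMI. Aged neurons had the higher median of UMIs. When each nucleus was thinned to 1000 UMIs, which left out 10 aged and 4 young neurons, Htr2c was seen in 28.9% (27.6 to 30.2) of aged and 25.9% (24.8 to 27.0) of young neurons, against 2.11% and 1.11% of glia. Any of the 9 members was seen in 91.2% and 88.2% of neurons, and in 51.8% and 48.1% after thinning. Many neurons held several members. Without thinning, 29.8% of aged and 29.7% of young neurons had UMIs of exactly 2 members, and 21.8% and 19.3% of 3.

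The UMIs of a receptor gene were unevenly spread over nuclei. Neurons with an Htr2c UMI held a mean of 7.31 (aged) and 6.96 (young) UMIs, the highest nuclei held 80 and 81, and 748 and 828 neurons held 10 or more. For Htr1f the means were 4.403 and 4.15 and the highest nuclei held 55 and 48. Htr5a had means of 1.03 and 1.02 and at most 2 UMIs in any neuron. Htr7 had means of 2.17 and 2.09, with 18 and 22 UMIs in the highest nuclei, and Htr2a means of 1.705 and 1.82, with 13 and 27. Because UMIs cluster in nuclei, the counting intervals of Htr2c, Htr1f, Htr4, Htr7 and Htr2a are too narrow for the variation between nuclei.

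**Figure D3:**
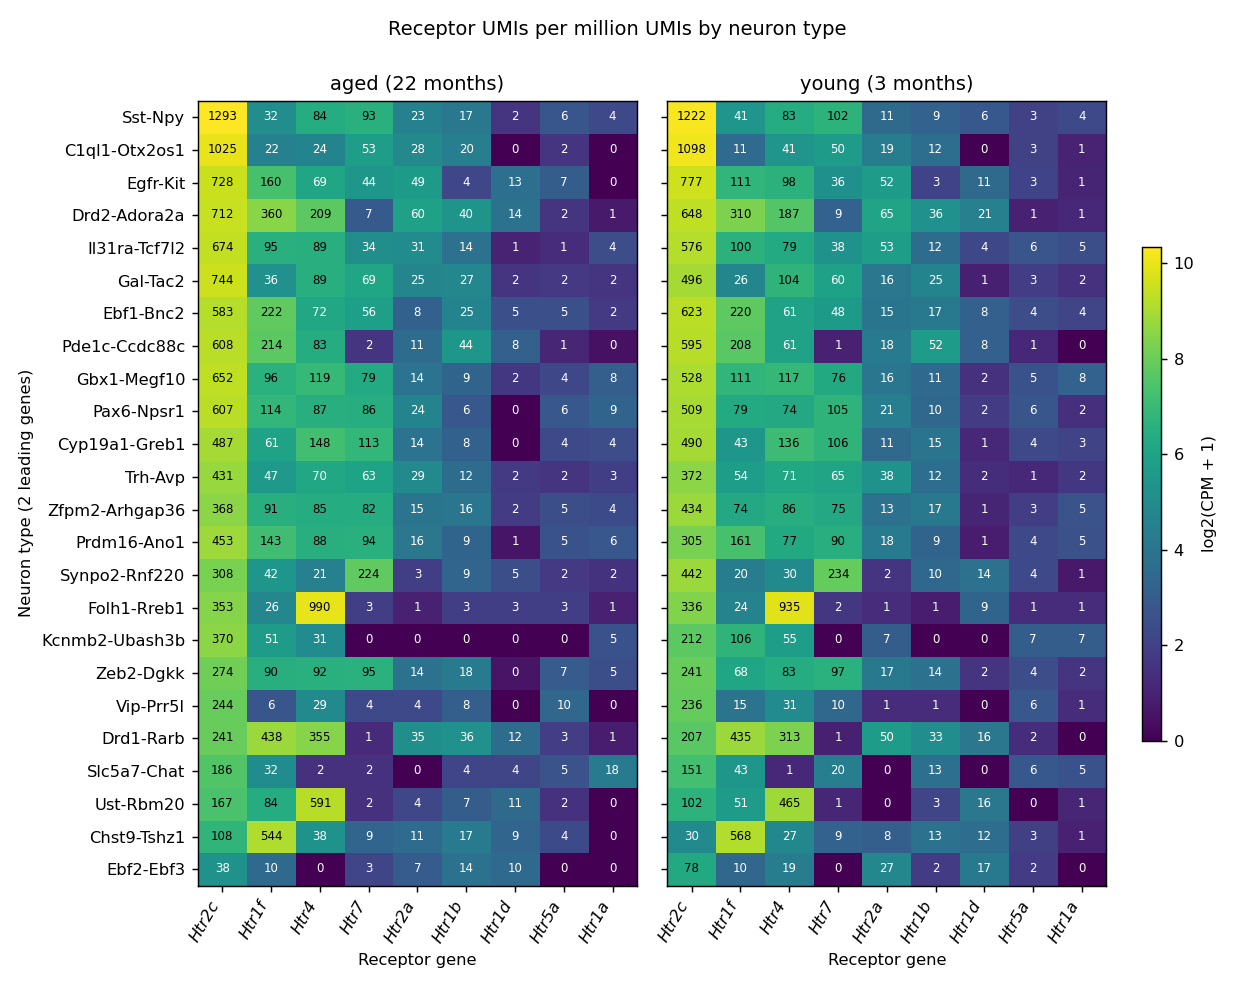
CPM of the 9 receptor genes, rounded to whole numbers, in the 24 neuron types with 20 or more nuclei in each library, coloured by log2(CPM + 1). Htr2c is at 29.6 CPM or more in all types of both libraries, while Htr1f and Htr4 each have 3 high types that are the same in both.

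Htr2c had UMIs in all 24 neuron types, with an interval above that of near-empty barcodes in 20 aged and 16 young types. It was highest in Sst-Npy neurons, which carried all 6 markers of Sst Npy interneurons, with 1293 CPM (1224 to 1364.5) in the aged and 1222 CPM (1162 to 1284) in the young library. C1ql1-Otx2os1 neurons came second, with 1025 CPM (938 to 1119) and 1098 CPM (1034 to 1166). These 2 types overlapped in the young and lay apart in the aged library. When the members were left out of the clustering genes, the highest cluster was C1ql1-Otx2os1 instead. At the low end stood Ebf2-Ebf3 neurons, with 38.4 and 77.7 CPM, and Chst9-Tshz1 neurons, with 108 and 29.6 CPM. The median over types was 442 CPM in the aged and 438 CPM in the young library. Of the 23 neighbouring pairs in the order of types, 17 had overlapping intervals in each library.

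Htr1f had a narrower pattern. Its highest type was Chst9-Tshz1, in which all 4 Foxp2 Tshz1 markers were highest, with 544 CPM (516 to 574) in the aged and 568 CPM (537 to 602) in the young library. Drd1-Rarb neurons, which came second to Folh1-Rreb1 neurons in the score of Drd1 striatal markers, followed with 438 and 435 CPM, and Drd2-Adora2a neurons, which carried all 6 markers of the Drd2 striatal type, with 360 and 310 CPM. Neighbours among these 3 types did not overlap in either library. The lowest values were 5.82 CPM in aged Vip-Prr5l and 9.72 CPM in young Ebf2-Ebf3 neurons. Finer clusters divided the Chst9-Tshz1 neurons by this gene: 219 aged and 214 young nuclei stood at 953 and 934 CPM, and 139 and 127 nuclei stood at 66.7 and 63.7 CPM. Htr1f was itself among the genes used for clustering, as were Htr2a, Htr2c, Htr4 and Htr7, so this division is a description.

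Htr4, a receptor known for its high level in the striatum, was highest in Folh1-Rreb1 neurons, with 990 CPM (932 to 1051) in the aged and 935 CPM (884 to 988) in the young library and a UMI in 94.4% and 89.6% of nuclei. Ust-Rbm20 neurons came next with 591 and 465 CPM, then Drd1-Rarb neurons with 355 and 313 CPM and Drd2-Adora2a neurons with 209 and 187 CPM. These 4 neighbours did not overlap in either library. In Slc5a7-Chat neurons, in which all 4 cholinergic markers were highest, Htr4 had 1 UMI in each library, from 31 aged and 51 young nuclei.

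Htr7 was highest in Synpo2-Rnf220 neurons, a thalamic-like type by 6 detected markers, with 224 CPM (205 to 245) in the aged and 234 CPM (211 to 259) in the young library. Cyp19a1-Greb1 neurons followed at 113 and 106 CPM. Drd1-Rarb neurons held few Htr7 UMIs, 8 aged and 5 young in 551 and 621 nuclei (1.44 and 0.864 CPM). Vip-Prr5l neurons, which carried all 9 suprachiasmatic markers, held Htr7 at 3.88 and 10.4 CPM.

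Htr2a, Htr1b and Htr1d had Drd1-Rarb and Drd2-Adora2a neurons among their 4 highest types in both libraries. Htr2a was highest in Drd2-Adora2a neurons in both libraries (59.95 and 64.96 CPM), and Htr1d too (13.9 and 21.5 CPM). Htr1b, a receptor on nerve endings like that of Htr1d, was highest in Pde1c-Ccdc88c neurons (43.8 and 52.2 CPM), ahead of Drd2-Adora2a (39.7 and 36.1 CPM) and Drd1-Rarb neurons (36.1 and 32.8 CPM). Along the whole order of types, no neighbouring pair lay apart for Htr2a or Htr1d in either library. For Htr1b, 1 pair did in the young library, that of Pde1c-Ccdc88c and Drd2-Adora2a. Htr1b shares 2.28 kb with an annotated antisense gene, D430036J16Rik, which stood at 21.7 and 17.3 CPM in neurons; the sources used here do not say if counting used strand, so their reads cannot be told apart.

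Htr1a and Htr5a were too sparse to order the types. No neighbouring pair of types lay apart for either gene in either library. Htr1a was highest in 31 Slc5a7-Chat nuclei of the aged library (17.6 CPM) and in Gbx1-Megf10 neurons of the young library (8.44 CPM). Htr5a did not exceed 9.70 CPM in any type. Over the 24 types, the Pearson correlation of log2(CPM + 1) between the 2 libraries was 0.94 for Htr1f and Htr7, 0.91 for Htr2c, 0.90 for Htr4, 0.83 for Htr1b and Htr2a, 0.82 for Htr1d, 0.76 for Htr1a and 0.27 for Htr5a; the types were defined on both libraries together.

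For each of the 7 members with 500 or more neuronal UMIs, the genes with the most similar pattern over the 24 types were sought among 10948 others, by the mean of Pearson's r in the 2 libraries. They were Cracr2a, Tafa5 and Cntnap2 for Htr2c (0.69, 0.67 and 0.67), Dok6, Zswim6 and Slc35f3 for Htr1f (0.81, 0.79 and 0.78), and Negr1, Syt12 and Dip2c for Htr4 (0.76, 0.76 and 0.75). For Htr7 they were Cdh20, Chrm3 and Tbc1d1 (0.82, 0.80 and 0.79), and for Htr2a Man1a, Dlgap2 and B3galt5 (0.71 each). For Htr1b they were Chst11, Caln1 and Lmf1 (0.80, 0.77 and 0.77), and for Htr1d Fam49a, Kcnab1 and Cacng3 (0.80, 0.77 and 0.76). Each was picked as the highest of many and shares libraries and depth with the member, so these are descriptions. Between members themselves r reached 0.65 at most (Htr1b and Htr2a, aged).

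**Figure D4:**
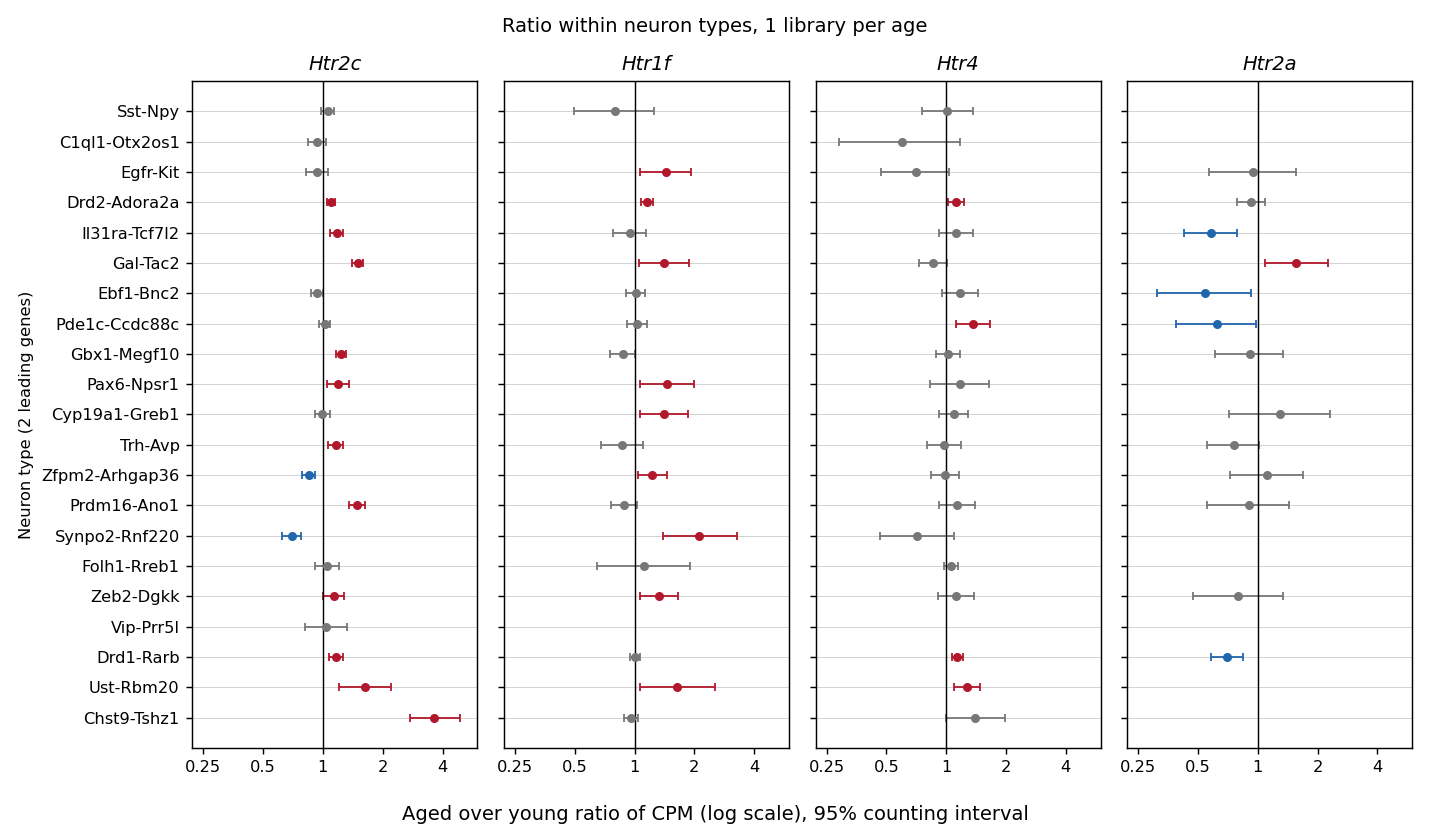
Aged-to-young ratio of CPM (log axis) for Htr2c, Htr1f, Htr4 and Htr2a in neuron types with 50 or more nuclei in each library and 50 or more UMIs of the gene, with 95% counting intervals. Red marks intervals above 1 and blue intervals below 1; Htr2c reaches 3.64 in Chst9-Tshz1 and 0.70 in Synpo2-Rnf220 neurons, and Htr2a lies below 1 in 4 types and above 1 in Gal-Tac2 neurons.

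Within neuron types, 103 pairs of a member and a type had enough nuclei and UMIs for a ratio. The counting interval lay above 1 in 25 and below 1 in 8, that is in 24.3% and 7.77%. Over all 192752 pairs of a gene and a type under the same rule, the shares were 10.2% above and 9.68% below. These shares grow with UMIs. Among pairs with 50 or more and under 200 UMIs they were 6.02% and 6.85%, beside 7 above and 4 below among 41 of the members' pairs. Among pairs with 200 or more and under 1000 UMIs they were 12.7% and 11.4%, beside 6 above and 2 below among 37. Among pairs with 1000 or more and under 10000 UMIs they were 25.3% and 20.3%, beside 12 above and 2 below among 25. A further count left out every nucleus with 10 or more UMIs of the member, a measure taken after the values were seen. Since it drops nuclei by the value compared, it takes most from the library with more of its UMIs in such nuclei. It gave 15 intervals above 1, of which 13 were among the 25, and 7 below 1, all among the 8. The other 2 above 1 were Htr2c in C1ql1-Otx2os1 (from 0.933 to 1.45, 1.11 to 1.90) and Htr1f in Il31ra-Tcf7l2 neurons (from 0.944 to 1.30, 1.04 to 1.62). Some of the 13 and 7 pairs had no such nucleus in either library, so the measure could not change them. Above 1 they were Htr1f in Synpo2-Rnf220, Gal-Tac2, Egfr-Kit and Ust-Rbm20, Htr2a in Gal-Tac2 and Htr2c in Ust-Rbm20 neurons. Below 1 they were Htr1d in Drd1-Rarb and Drd2-Adora2a and Htr2a in Ebf1-Bnc2 and Pde1c-Ccdc88c neurons. Htr2c accounted for 11 of the 25 above and 2 of the 8 below among its 21 types. In Gal-Tac2 neurons, in which 8 preoptic markers were detected, Htr2c stood at 744 CPM in the aged and 496 CPM in the young library, a ratio of 1.5 (1.41 to 1.60), with a UMI in 67.8% and 55.5% of nuclei. The 2 finer clusters that held most of these neurons gave ratios on the same side, 1.5 (1.39 to 1.61) and 1.35 (1.20 to 1.53). Prdm16-Ano1 neurons, which carried all 4 septal markers, gave 453 and 305 CPM, a ratio of 1.49 (1.35 to 1.64). There 32 aged nuclei with 10 or more UMIs held 585 of the 900 UMIs, and without such nuclei in either library the ratio was 1.10 (0.949 to 1.28). The 2 larger finer clusters of this type gave 1.245 (1.04 to 1.49) and 1.31 (1.16 to 1.48). In Gal-Tac2 neurons the ratio without such nuclei was 1.43 (1.26 to 1.61).

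The ratio furthest from 1 was that of Htr2c in Chst9-Tshz1 neurons, where 358 aged nuclei held 266 UMIs (108 CPM) and 341 young nuclei held 62 UMIs (29.6 CPM), a ratio of 3.64 (2.75 to 4.88). Most of the aged UMIs lay in few nuclei. In the aged library 11 nuclei with 10 or more UMIs held 172 of the 266, and no young nucleus had as many. Without such nuclei the ratio was 1.37 (0.984 to 1.92), but this cut took nuclei from the aged library alone and could only lower the ratio. Without the top nucleus in each library the ratio was 3.78 (2.79 to 5.19). The 2 finer clusters of this type gave 6.39 (3.77 to 11.6) and 2.58 (1.85 to 3.68). Of the aged nuclei of the type 13.7% had a UMI, and of the young ones 9.38%. In the other direction, Synpo2-Rnf220 neurons gave 308 and 442 CPM, a ratio of 0.70 (0.62 to 0.78), although 58.9% and 61.5% of nuclei had a UMI, and Zfpm2-Arhgap36 neurons gave 368 and 434 CPM (0.85, 0.79 to 0.91). Without nuclei of 10 or more UMIs the ratio was 0.716 (0.581 to 0.882) in Synpo2-Rnf220 and 0.962 (0.864 to 1.07) in Zfpm2-Arhgap36 neurons. Finer clusters of Zfpm2-Arhgap36 neurons lay on both sides of 1, at 1.08 (0.965 to 1.22), 0.618 (0.540 to 0.706) and 0.862 (0.702 to 1.06). Of the intervals of Htr2c, 6 of the 11 above 1 and 1 of the 2 below 1 were still apart from 1 without such nuclei. Ust-Rbm20 neurons, among the 6, had no such nucleus in either library, so their interval could not change.

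Htr1f had intervals above 1 in 9 of its 19 types and below 1 in none. The ratio furthest from 1 was 2.12 (1.39 to 3.29) in Synpo2-Rnf220 neurons, from 41.9 and 19.8 CPM, the type in which Htr2c went the other way. Without nuclei of 10 or more Htr1f UMIs, 6 of the 9 intervals were still above 1. Among these 6, Synpo2-Rnf220, Gal-Tac2, Egfr-Kit and Ust-Rbm20 neurons had no such nucleus in either library, so the interval of Htr1f there could not change. In Chst9-Tshz1 and Drd1-Rarb neurons, its 2 highest types, the interval of the ratio included 1. Htr4 had intervals above 1 in 4 of 20 types, among them Ust-Rbm20 (1.27, 1.10 to 1.48) and Drd1-Rarb neurons (1.13, 1.06 to 1.21). Without nuclei of 10 or more Htr4 UMIs all 4 intervals included 1, with ratios of 1.18 (0.999 to 1.39) in Ust-Rbm20 and 1.06 (0.979 to 1.14) in Drd1-Rarb neurons. None of the 15 types of Htr7 or the 12 of Htr1b had an interval apart from 1.

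Htr2a was lower in the aged library in 4 of its 13 types by this measure. Its levels were 34.8 and 49.6 CPM in Drd1-Rarb neurons (0.70, 0.58 to 0.84) and 30.9 and 53.3 CPM in Il31ra-Tcf7l2 neurons (0.58, 0.43 to 0.78), and the ratios in Ebf1-Bnc2 and Pde1c-Ccdc88c neurons were 0.54 and 0.62. In Drd2-Adora2a neurons, where it was highest, the 2 libraries overlapped. Gal-Tac2 neurons had the opposite order, with 24.9 and 16.0 CPM (1.56, 1.09 to 2.26). All 5 of these Htr2a intervals were still apart from 1 without nuclei of 10 or more UMIs. Ebf1-Bnc2, Pde1c-Ccdc88c and Gal-Tac2 neurons had no such nucleus, so their intervals could not change. Without the top nucleus in each library, the Htr2a interval in Ebf1-Bnc2 neurons included 1 (0.561, 0.303 to 1.002). Those of the other 4 types did not. Htr1d could be compared in 2 types and was lower in both, with 11.5 and 16.2 CPM in Drd1-Rarb neurons (0.71, 0.51 to 0.99) and 13.9 and 21.5 CPM in Drd2-Adora2a neurons (0.65, 0.47 to 0.89). Without the top nucleus in each library the interval included 1 in Drd1-Rarb (0.718, 0.511 to 1.003) but not in Drd2-Adora2a neurons (0.646, 0.463 to 0.893). Finer clusters differed, with ratios of 0.98, 0.94 and 0.48 (0.27 to 0.81) in Drd1-Rarb neurons. In Drd2-Adora2a neurons they were 0.93, 0.39 (0.21 to 0.70) and 0.78, the last on 2 UMIs in each library. Only the intervals printed for finer clusters lay apart from 1.

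The other genes of the serotonin pathway were described in neurons by the same fold. Of the 5 remaining receptor genes, 4 had 50 or more UMIs. Htr2b stood at 6.91 CPM in the aged and 14.3 CPM in the young library, a ratio of 0.48 (0.42 to 0.55), and Htr5b at 0.50 and 0.68 CPM (0.73, 0.42 to 1.26), while Htr3a, a channel subunit, stood at 0.85 and 0.61 CPM (1.39, 0.86 to 2.27). Htr2b lies inside the gene Psmd1 on the other strand, and Psmd1 itself was at 115 and 112 CPM (1.02, 0.98 to 1.06), so reads of the 2 genes may be mixed without strand. Htr6 was at 2.23 and 2.20 CPM. Htr5b was highest in Pax6-Npsr1 neurons in both libraries, at 12.02 and 10.74 CPM.

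Of 11 genes of synthesis, transport and breakdown, 6 were measured and 2 were past the fold, both higher in the aged library. Maob, a mitochondrial enzyme that degrades amines, stood at 8.94 and 4.76 CPM (1.88, 1.61 to 2.20), and was highest in Synpo2-Rnf220 neurons at 87.5 and 54.2 CPM. Ddc, the decarboxylase shared by serotonin and dopamine synthesis, stood at 20.0 and 13.8 CPM (1.45, 1.32 to 1.60). None of 9 G protein genes was past the fold, and their median log2 ratio was -0.09.

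Among 20 genes of downstream enzymes and channels, 2 were past it, both lower in the aged library: Kcnj6, a subunit of potassium channels opened by Gi-coupled receptors, at 91.6 and 115 CPM (0.80, 0.77 to 0.83), and Plcb3, a phospholipase C, at 1.14 and 1.66 CPM. Among 12 partners and RNA-editing genes, Arrb2, an arrestin that uncouples receptors, was past it at 19.3 and 24.7 CPM (0.78, 0.72 to 0.85). Adarb1 and Adar, whose enzymes edit the Htr2c transcript, stood at 108 and 106 CPM and at 103 and 102 CPM. Counting both directions, 1 of 9 members and 8 of the 51 measured pathway genes were past the fold, beside 24.6% of all genes.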

How the data were processed

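The deposited matrices hold raw counts of UMIs per gene and barcode, unfiltered, and their headers name Cell Ranger 4 (per the file headers). The sources used here do not give the genome build, the annotation or the treatment of introns and strand. Barcodes were called as nuclei against a near-empty profile (barcodes of at most 100 UMIs) (10000 Monte Carlo draws, rate 0.001), and Scrublet in scanpy 1.11.5 marked 418 aged and 508 young doublets, which were left out. Both libraries were clustered together (2000 variable genes, 30 components, 15 neighbours, Leiden resolution 1), named from marker lists, and neurons were clustered again. UMIs were summed per library and type and scaled to CPM. Intervals are exact Poisson (CPM), Clopper-Pearson (shares) and conditional binomial (ratios), at 95%. The fold (a ratio of 0.8 or its inverse) was tested on simulated data for neurons: of 17987 genes, all 200 genes changed 2-fold were called, and 5.74% of unchanged genes. The simulated counts were Poisson draws from the pooled means, with counting error alone and no variation between nuclei, pools or libraries. The 5.74% is therefore not a rate of false calls in the real libraries. Gene spans came from GENCODE M21, matched by Ensembl identifier for all 9 members.

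Named genes were the members, pathway genes past the fold and the 3 genes most like each member with 500 or more UMIs. Finer clusters, nuclei with 10 or more UMIs, and pathway genes named without passing the fold were added after their values were seen. Members and lists were chosen with earlier results of these data known. The alternatives tried, edgeR and DESeq2 scaling among them, are given in the closing section.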

Additional observations from a re-analysis of the deposited data

Results flagged for a closer look

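Of the 9 members, 2 had neuron types on both sides of 1 in the comparison of the libraries, each with a counting interval apart from 1. For Htr2c the ratio of the aged to the young library was 3.64 (2.75 to 4.88) in Chst9-Tshz1 and 0.70 (0.62 to 0.78) in Synpo2-Rnf220 neurons. In Chst9-Tshz1 neurons 11 aged nuclei held 172 of the 266 UMIs, and without nuclei of 10 or more UMIs the ratio was 1.37 (0.984 to 1.92), which includes 1. This cut took nuclei from the aged library alone there, so it could only lower the ratio. Without the top nucleus in each library the ratio was 3.78 (2.79 to 5.19), and finer clusters gave 6.39 and 2.58. In Synpo2-Rnf220 neurons the ratio without nuclei of 10 or more UMIs was 0.716 (0.581 to 0.882). For Htr2a it was 1.56 (1.09 to 2.26) in Gal-Tac2 and 0.58 (0.43 to 0.78) in Il31ra-Tcf7l2 neurons. The difference between these types was not tested, since there was 1 library per age, and the types were picked as the ends of the range of 21 and 13 types.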

How the results depend on the processing

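Over 11 alternatives for neurons, 7 members were higher in the aged library each time and none was past the fold there. Htr1d was past the fold downward in all but the alternative with 5 CPM added, which left 0 members past it and by construction pulls low levels toward each other; its log2 ratio ranged from -0.52 to -0.26. edgeR and DESeq2 scaling each shifted all log2 ratios by -0.02. The share of neurons with any member was 69.8% of aged and 66.8% of young neurons when thinned to 2000 UMIs and 91.2% and 88.2% when not thinned, since shares grow with depth. The share of genes higher in aged neurons past the fold was 16.7% when every gene with 1 UMI in each library was kept.

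Under other clusterings of the neurons the highest type, matched by its nuclei, was the same for 7 to 9 of the 9 members. Htr2c was the exception that recurred: without the members among the clustering genes its highest cluster was C1ql1-Otx2os1, at 1465 and 1696 CPM. Alternatives chosen after seeing the data were tried within types. At Leiden resolution 2 there were 40 intervals above 1 and 16 below 1 among 155 pairs. With edgeR scaling there were 24 and 12 of 103, without the members in clustering 21 and 8 of 98, without the nucleus richest in the member 25 and 7 of 103, and without every nucleus of 10 or more UMIs of the member 15 and 7 of 103. In that last count, which drops nuclei by the value compared, Htr4 went from 4 intervals above 1 to 0, and pairs that held no such nucleus could not change. No paired analysis was possible because each age is 1 library and the labels give no replicate numbers, and no replicate could be left out. Depth limited Htr1a, Htr5a and Htr1d most, with 130 to 411 neuronal UMIs per library.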

Other observations

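Outside neurons and glia, Htr2c stood at 360 CPM in aged and 149 CPM in young endothelial nuclei, from 29 and 8 UMIs in 24 nuclei each. The 29 aged UMIs were in 3 nuclei, 18 of them in 1 nucleus of 16162 UMIs, against a median of 2061.5 in the class, and the 8 young UMIs were in 2 nuclei. The neuron type Slc17a7-Pdzrn3 had 1 aged and 71 young nuclei and entered no comparison of types.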
